A study of Mus musculus with 13 samples.

Results

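Timp3 encodes an inhibitor of metalloproteinases, and it was examined here together with the other 3 inhibitors of its family (Timp1, Timp2 and Timp4) and with 3 of the proteases that such inhibitors act on (Adam10, Adam17 and Mmp14). These 7 genes of the 22180 measured were taken by symbol, and each had 1 probe set that carried its symbol and no other. Timp3 was picked with its differences between the groups known, so its values are given as a description, with no p-value and nothing read from its place among called genes. The other 6 genes were picked for their roles, also with earlier results of these data known. The samples were S1 segments, the first stretch of the proximal tubule, from kidneys of male C57BL/6J mice, each hybridised to its own Affymetrix array, 13 arrays altogether. The LPS/LPS group (5 arrays) received lipopolysaccharide (LPS, the endotoxin of Gram-negative bacteria) at 0.25 mg/kg and, 24 h later, at 5 mg/kg, a schedule called preconditioning. The LPS group (4 arrays) received a single intraperitoneal dose of 5 mg/kg. Both of these groups were studied 24 h after the 5 mg/kg dose. The control group (4 arrays) received saline. No transgene or deletion is named for any group. Whether the arrays of a group stem from different mice is not stated, and the p-values below cover only the spread between samples.

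Tissue inhibitors of metalloproteinases (TIMPs) are small secreted proteins that occupy the catalytic site of matrix metalloproteinases and their relatives and block it. TIMP3 differs from the other members in that it stays bound to the extracellular matrix and inhibits ADAM17 and several ADAMTS proteases as well as matrix metalloproteinases. ADAM17 and ADAM10 are membrane proteases called sheddases, since they release the outer parts of cytokines, growth factors and receptors from the cell surface, among them tumour necrosis factor. MMP14 is a membrane-anchored matrix metalloproteinase that degrades collagen and, together with TIMP2, activates the gelatinase MMP2.

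The Timp3 gene lies inside the synapsin gene Syn3 in the RefSeq annotation, and Timp1 and Timp4 lie inside Syn1 and Syn2. The 250 bases before the annotated start of Timp3 are shown because its RNA is the one the results turn on. They come from RefSeq (GRCm38.p6, chr10:86300162-86300411, + strand), and capitals mark the only GC box, GGGCGG on either strand, which begins at position -15 from the start.
Timp3: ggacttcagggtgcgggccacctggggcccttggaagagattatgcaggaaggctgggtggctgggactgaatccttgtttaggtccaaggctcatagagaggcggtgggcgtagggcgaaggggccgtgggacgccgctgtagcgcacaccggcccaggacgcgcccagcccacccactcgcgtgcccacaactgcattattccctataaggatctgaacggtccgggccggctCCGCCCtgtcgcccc
This stretch had 65.6% G and C and 18 CpG dinucleotides, against medians of 52.4% and 6 over 32851 promoters of the same length. A GC box stood in 32.7% of those promoters. An E-box (CANNTG) matched at 2 places in the Timp3 stretch and in 66.2% of all promoters. On both strands the AP-1 site (TGANTCA) had no match in it, and 6.75% of all promoters held one. The TATA box (TATAAA) had none either, against 12.4% of promoters. The same held for the motif CCAAT, found in 33.8%, and for the NF-kB site, found in 7.25%. The Timp4 stretch had 2 CpG dinucleotides and no GC box, and that of Timp2 had 21 and 1 GC box.

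Levels are RMA log2 values, in which a difference of 1 is a doubling of signal. Background was gauged from 1105 olfactory receptor genes, which are mostly silent outside the nose, and the 95th percentile of their means, 4.77, is called the background value here. Only 9.95% of genes had a mean over all arrays above this value, and 0 of the 7 genes did. Near background an array can understate the size of a change. Array medians ranged from 3.56 to 3.68. Of the proximal tubule markers, the phosphate transporter gene Slc34a1 averaged 9.23 in LPS/LPS, 10.04 in LPS and 11.23 in control, while Slc5a2, the glucose transporter of this segment, averaged 4.13, 4.22 and 4.50, below the background value in every group. LPS replicate 3 stood apart in genes that mark later tubule segments (loop, distal, collecting duct). The mean of 6 such markers was 5.73 on that array, against 3.87 to 4.29 on the other 12. LPS replicate 3 also had the highest means for proximal tubule (6.40), fibroblast and mural (4.40), endothelial (4.30) and macrophage markers (3.99). Its mean for podocyte markers was the lowest (3.93). Values without it are given for Timp3, Timp2 and Adam10, and for list counts and genes named from the lists where it moved them by more than 1.5 times. In LPS/LPS minus LPS, leaving it out also moved Timp1 from -0.04 to -0.08, Adam17 from -0.14 to -0.23 and Mmp14 from 0.04 to 0.10. Syn3 moved from -0.14 to -0.03 there, and from 0.18 to 0.07 in LPS minus control. Counts and mean differences of the marker lists were not computed without it.

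Timp3 was lowest in the preconditioned and challenged mice and highest after the single challenge. In the 5 LPS/LPS arrays it read 3.92, 3.93, 3.57, 3.56 and 3.79. In the 4 LPS arrays it read 4.96, 5.94, 5.26 and 5.72. In the 4 control arrays it read 5.19, 5.25, 4.71 and 4.71. Every LPS/LPS array lay below every array of both other groups, while the LPS and control arrays overlapped. All 5 LPS/LPS arrays were below the background value, as were 2 of the 4 control arrays and 0 of the 4 LPS arrays.

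The group means of Timp3 were 3.76 ± 0.18 in LPS/LPS (SD, n = 5), 5.47 ± 0.44 in LPS (SD, n = 4) and 4.96 ± 0.30 in control (SD, n = 4). LPS/LPS minus LPS was -1.71 (limma moderated SE 0.20). Since all LPS/LPS arrays lay below the background value, no fold on the linear scale is given. The gap between the highest LPS/LPS array and the lowest LPS array was 1.03. LPS/LPS minus control was -1.21 (SE 0.20), with a gap of 0.77 between the nearest arrays. LPS minus control was 0.50 (SE 0.21). Both comparisons of LPS/LPS share its 5 arrays, so these differences are not independent. In RNA from whole segments, fewer cells that express a gene and less of its RNA per cell cannot be told apart.

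**Figure D1:**
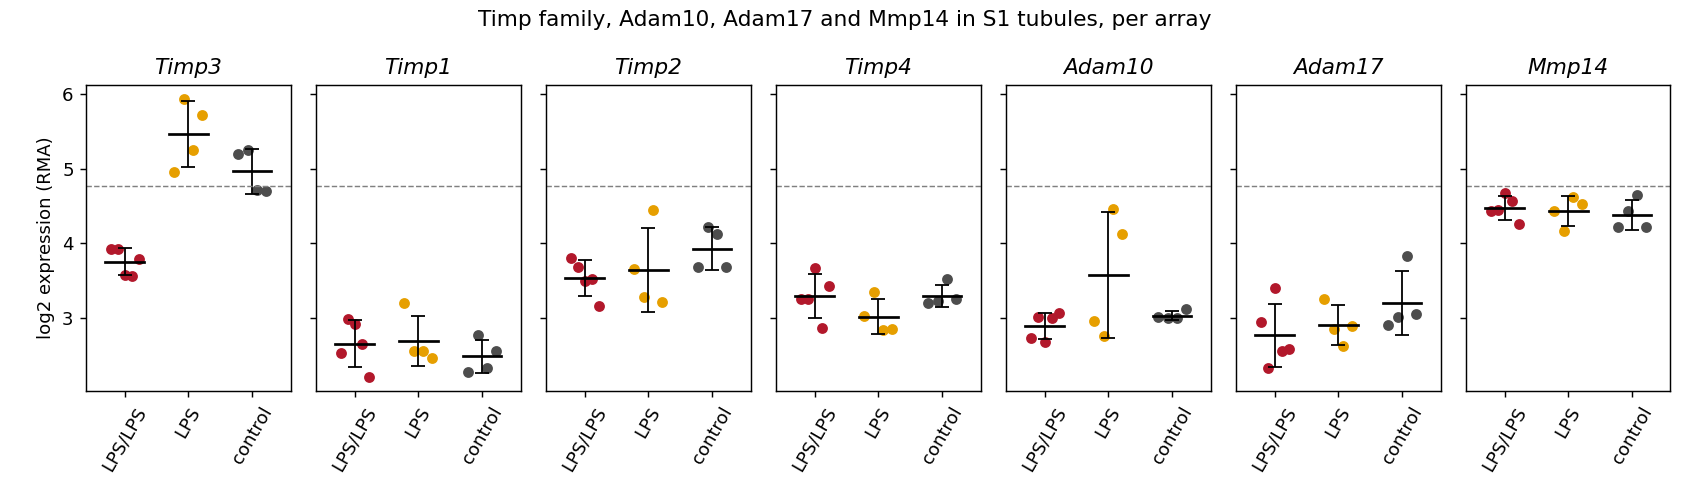
RMA log2 expression (vertical axis) of the 7 genes on each array, by group. Points are arrays, horizontal bars are group means, error bars are SDs, and the dashed line is the background value of 4.77. For Timp3 the LPS/LPS arrays lie between 3.56 and 3.93 and do not overlap the other groups, while the groups of each other gene overlap.

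By limma over all genes, 1 of the 7 genes, Timp3, passed an adjusted p under 0.05 in LPS/LPS vs LPS. In that comparison 0.0631% of all genes passed, 14 genes that were all lower in LPS/LPS. Since Timp3 was picked with this call known, nothing is read from that count. The count of 14 genes rested on single arrays: it was 96 without LPS replicate 1, and 5 to 7 without control replicate 3 or 4, LPS replicate 4, or LPS/LPS replicate 2, 3, 4 or 5. In LPS/LPS vs control 0 of the 7 passed, where 0.00902% of all genes did (0.00451% in each direction). In LPS vs control 0 of the 7 passed, and limma called 0% of all genes, with 6.43% at an unadjusted p under 0.05. Groups were fully separated, with every array of one above every array of the other, for 1 of the 7 genes (Timp3) in LPS/LPS vs LPS, where 2.4% of all genes were separated (1.1% higher and 1.3% lower in LPS/LPS). The same gene was the 1 of 7 in LPS/LPS vs control, where 1.54% of all genes were separated (0.839% higher and 0.699% lower). In LPS vs control 0 of the 7 were separated, where 3.15% of all genes were (1.55% higher and 1.6% lower in LPS). As Timp3 was picked with its differences known, nothing is read from its separation either.

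Arrays differed in the SD of their log2 values, and Timp3 is given separately for the 7 arrays at or above the median SD (wide) and the 6 below it (narrow). Since every LPS/LPS array lay below all others, any such split keeps the groups apart, and only the sizes within each class are of use. Among wide arrays Timp3 read 3.79 and 3.92 in LPS/LPS, 5.26 to 5.94 in LPS (3 arrays) and 4.71 and 5.19 in control. Among narrow arrays it read 3.56 to 3.93 in LPS/LPS (3 arrays), 4.96 on the 1 LPS array, and 4.71 and 5.25 in control. LPS/LPS minus LPS was -1.78 within wide and -1.27 within narrow arrays, and LPS/LPS minus control was -1.09 and -1.29. LPS minus control was 0.69 within wide arrays and -0.02 within narrow arrays, where it rests on 1 LPS array. Without LPS replicate 3, LPS/LPS minus LPS was -1.78 (SE 0.22) and LPS minus control 0.57 (SE 0.23).

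The mean level of S1 and S2 segment markers was also lower in LPS/LPS, with mean differences of -0.62 (vs LPS) and -0.93 (vs control). Of the 9 measured markers 5 had a mean above background. Their mean level ranged from 4.58 to 5.35 in LPS/LPS, from 4.70 to 6.40 in LPS and from 5.39 to 6.34 in control. The 6.40 was LPS replicate 3, and the other LPS arrays read 4.70, 5.21 and 5.72. In both LPS/LPS comparisons 9 of 9 had negative differences, where 40.7% (vs LPS) and 44.2% (vs control) of all genes did. In LPS vs control 4 of the 9 were positive and 5 negative, with a mean difference of -0.31. Of the positive genes, Lrp2, Cubn and Gatm were highest on LPS replicate 3. Lrp2 read 7.53 there and 3.95 to 5.95 on the other LPS arrays, with a control mean of 5.40. Gatm read 5.73 there and 3.68 to 3.93 on the others, with a control mean of 4.15. Slc5a12, also positive, was highest on LPS replicate 4. The signs without LPS replicate 3 were not computed. Among the LPS arrays replicate 1 had the lowest marker mean, 4.70, and the lowest Timp3 value, 4.96. The other LPS arrays did not keep this order. Replicate 3, with the highest marker mean (6.40), read 5.26 for Timp3, and replicate 2, with a marker mean of 5.21, had the highest Timp3 value, 5.94. Of 7 endothelial markers 0 had a mean above background, and their mean level ranged from 3.89 to 4.00 in LPS/LPS, from 3.86 to 4.30 in LPS and from 3.72 to 3.94 in control. Of 10 fibroblast and mural cell markers 2 had a mean above background. Their mean level ranged from 3.94 to 4.16 in LPS/LPS, from 3.86 to 4.40 in LPS and from 3.81 to 3.97 in control. The top of the LPS range was LPS replicate 3 for both the endothelial and the fibroblast and mural markers. The next highest LPS arrays read 4.11 and 4.04. The part of any of these markers in the Timp3 differences was not tested.

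**Figure D2:**
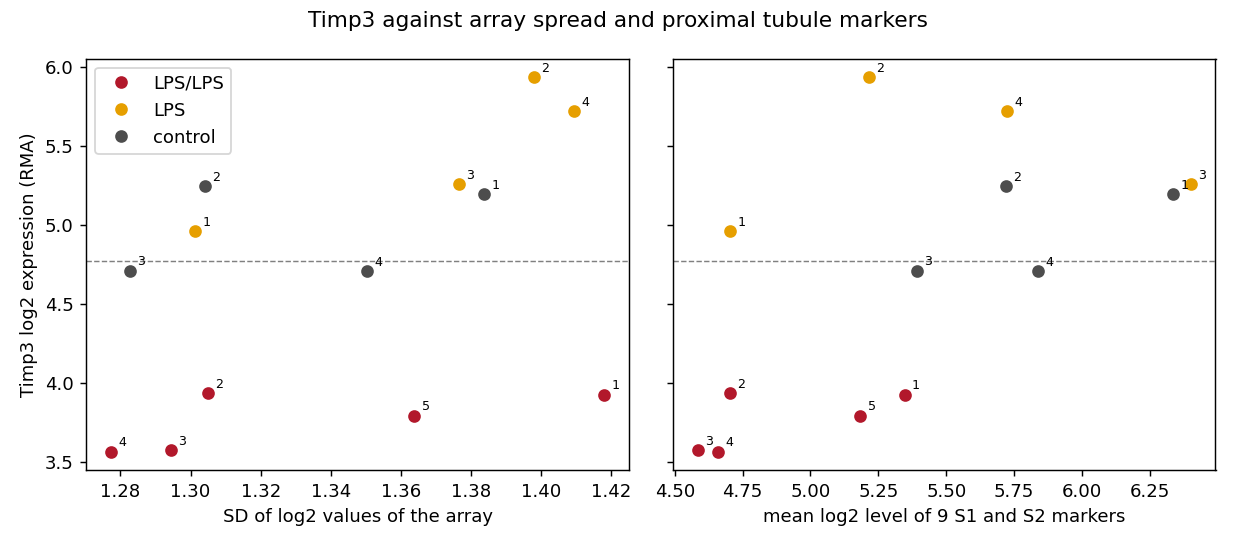
Timp3 log2 expression (vertical axes) of each array against the SD of all log2 values of that array (left) and against the mean log2 level of 9 S1 and S2 markers (right), with replicate numbers beside the points. The dashed line is the background value of 4.77. LPS/LPS arrays lie between 3.56 and 3.93. Of the LPS arrays, replicate 1 has the lowest marker mean (4.70) and the lowest Timp3 level (4.96), while replicate 3 has the highest marker mean (6.40) and a Timp3 level of 5.26.

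The other inhibitors of the family were dim and overlapped between the groups. Timp1, a soluble inhibitor often induced in injured tissue, averaged 2.66 ± 0.32 in LPS/LPS, 2.70 ± 0.34 in LPS and 2.49 ± 0.22 in control (SD, n = 5, 4 and 4). Timp2, which takes part in MMP2 activation, averaged 3.54 ± 0.24 in LPS/LPS, 3.65 ± 0.56 in LPS and 3.93 ± 0.29 in control. Timp4, known mainly from heart and fat, averaged 3.30 ± 0.30 in LPS/LPS, 3.02 ± 0.24 in LPS and 3.30 ± 0.15 in control. No array of these 3 genes reached the background value, and the highest was 4.44 for Timp2 on LPS replicate 3.

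None of these 3 differed between groups by limma adjusted over all genes. For LPS/LPS minus LPS the values were -0.04 for Timp1 (SE 0.19, 95% interval -0.45 to 0.38, adjusted p = 0.972), -0.11 for Timp2 (SE 0.23, interval -0.61 to 0.39, adjusted p = 0.923) and 0.28 for Timp4 (SE 0.17, interval -0.08 to 0.64, adjusted p = 0.667). For LPS/LPS minus control they were 0.17 for Timp1, -0.40 for Timp2 and -0.01 for Timp4 (adjusted p = 0.987, 0.987 and 0.998). For LPS minus control they were 0.21 for Timp1, -0.28 for Timp2 and -0.28 for Timp4 (adjusted p = 0.881, 0.871 and 0.805). The sign for Timp1 and Timp2 in LPS/LPS minus LPS changed with array weights. Without LPS replicate 3, Timp2 differed by 0.15 in LPS/LPS minus LPS and by -0.55 in LPS minus control.

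Among the proteases, Adam10 had the widest spread, and it lay in the LPS group. It read 2.74, 3.01, 2.68, 3.00 and 3.06 in LPS/LPS. It read 2.96, 2.76, 4.47 and 4.13 in LPS. It read 3.01, 3.00, 3.00 and 3.12 in control. LPS replicates 3 and 4 were high, and the other 2 LPS arrays lay below the control arrays. LPS/LPS minus LPS was -0.68 (SE 0.29, limma adjusted p = 0.529) and LPS minus control was 0.54 (SE 0.30, adjusted p = 0.781). Without LPS replicate 3, the array high in distal markers, these were -0.38 (SE 0.25, adjusted p = 0.864) and 0.25 (SE 0.26, adjusted p = 0.925).

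Adam17, the sheddase of tumour necrosis factor, averaged 2.77 ± 0.42 in LPS/LPS, 2.91 ± 0.26 in LPS and 3.20 ± 0.42 in control (SD, n = 5, 4 and 4). Its differences were -0.14 for LPS/LPS minus LPS (SE 0.23, adjusted p = 0.901), -0.43 for LPS/LPS minus control (SE 0.23, adjusted p = 0.987) and -0.29 for LPS minus control (SE 0.25, adjusted p = 0.864). The control mean includes 1 array at 3.83, where the other 3 read 2.91 to 3.06, and without that array LPS/LPS minus control was -0.22 and LPS minus control -0.08. Mmp14 had the narrowest spread of the 7 genes, with all 13 arrays between 4.16 and 4.67. It averaged 4.48 ± 0.16 in LPS/LPS, 4.43 ± 0.20 in LPS and 4.38 ± 0.20 in control. LPS/LPS minus LPS was 0.04 for Mmp14 (SE 0.14, interval -0.26 to 0.34, adjusted p = 0.953).

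**Figure D3:**
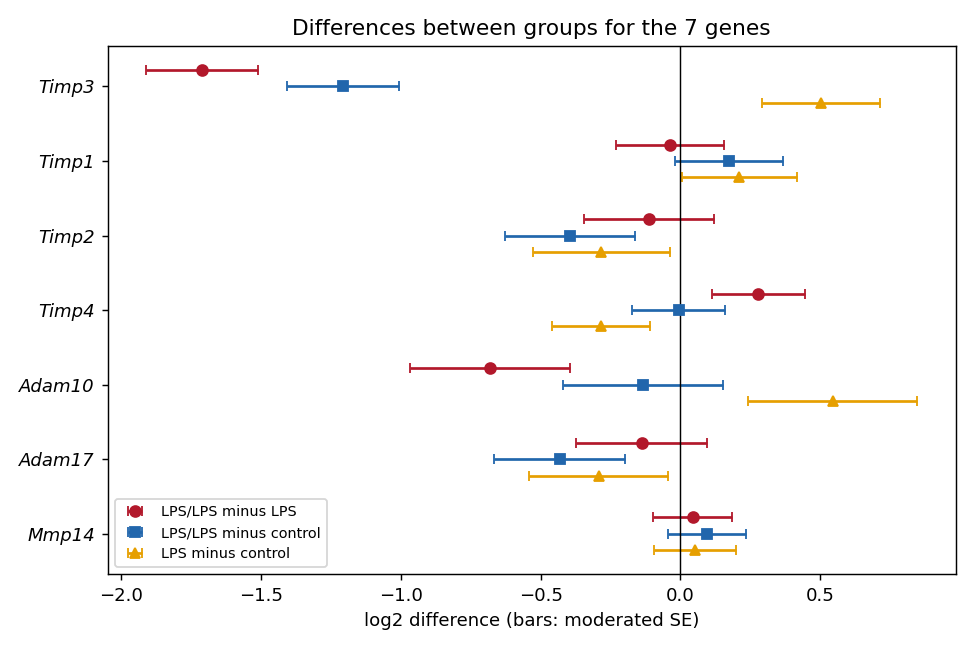
Log2 differences between groups (horizontal axis) for the 7 genes, with limma's moderated SE as bars and 1 symbol per comparison. Timp3 lies at -1.71 and -1.21 in the 2 comparisons of LPS/LPS, and Adam10 at -0.68 has the next largest difference in LPS/LPS minus LPS.

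The wider set of genes around these 7 was read from lists of inhibitors, proteases, regulators and substrates. Apart from Timp3, 0 genes of these lists passed the adjusted threshold in any comparison, so the counts that follow use an unadjusted p under 0.05 and are descriptions. In LPS/LPS vs LPS that was met by 8.61% of all genes, 4.13% as higher and 4.49% as lower, and the median difference of all genes was 0.05. Of 22 measured matrix metalloproteinase genes, 4 were past it as higher and 0 as lower, with a median difference of 0.05, and without LPS replicate 3 it was 1 and 1, where 2.67% of all genes were higher and 3.49% lower. Mmp9, a gelatinase, had the lowest p and averaged 3.87 in LPS/LPS against 3.49 in LPS; it was 0.38 higher (SE 0.15, limma adjusted p = 0.502). Mmp25, a membrane-anchored member known from leukocytes, differed by 0.31 (SE 0.13, adjusted p = 0.514). The mean exceeded the background value for 2 of the 22.

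Of the 9 ADAM sheddase genes, Adam10 and Adam17 included, 2 were past the unadjusted threshold as higher and 1 as lower in LPS/LPS vs LPS, and the list median was 0.09, while without LPS replicate 3 it was 0 and 0. Adam28 had the lowest p, with a difference of 0.41 (SE 0.15, adjusted p = 0.467), and Adam15, which averaged 5.14 in LPS/LPS, 4.72 in LPS and 5.08 in control, was the only one with a mean above background. Of 13 genes that regulate sheddases 0 were higher and 1 was lower, Tspan33, a tetraspanin partner of ADAM10. Tspan33 averaged 3.56 in LPS/LPS, 4.19 in LPS and 3.42 in control, so that LPS/LPS minus LPS was -0.63 (SE 0.22, adjusted p = 0.447). Furin, the convertase that removes the inhibitory propeptide of these proteases, averaged 5.09 in LPS/LPS, 5.44 in LPS and 5.13 in control (LPS/LPS minus LPS -0.36, SE 0.17, adjusted p = 0.580). Of 18 ADAMTS genes 1 was higher and 1 lower, and without LPS replicate 3 it was 0 and 1. The lower one, Adamts1, a protease of the matrix proteoglycans, averaged 3.99 in LPS/LPS and 4.60 in LPS (difference -0.60, SE 0.20, adjusted p = 0.407).

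Of 25 measured genes whose proteins are shed by these proteases, 2 were past the unadjusted threshold as higher and 5 as lower in LPS/LPS vs LPS, with a list median of -0.07, and without LPS replicate 3 it was 0 and 4. App, the amyloid precursor protein gene, read 5.10, 4.06, 3.63, 3.76 and 4.10 in LPS/LPS, 4.68, 6.15, 6.38 and 6.09 in LPS, and 5.25, 4.91, 4.52 and 4.79 in control. LPS replicate 1 was lower than LPS/LPS replicate 1, so the groups overlapped, and LPS/LPS minus LPS was -1.69 (SE 0.34, limma adjusted p = 0.111). Sdc4, the gene of the heparan sulphate proteoglycan syndecan-4, read 3.56 to 4.50 in LPS/LPS, 4.81 to 5.81 in LPS and 3.49 to 5.09 in control, with no overlap between LPS/LPS and LPS (difference -1.26, SE 0.30, adjusted p = 0.203). In that comparison 2 of the 25 genes, Sdc4 included, were fully separated as lower and 0 as higher, where 1.3% and 1.1% of all genes were. Havcr1, which encodes kidney injury molecule, averaged 3.34 in LPS/LPS, 3.96 in LPS and 3.20 in control. The other genes of this list past the unadjusted threshold, Kl, Mertk, Btc and Alcam, were picked after their values were seen. Kl, the gene of the anti-ageing protein klotho, differed by -1.22 (SE 0.55, adjusted p = 0.557), and by -0.54 (SE 0.39, adjusted p = 0.890) without LPS replicate 3. Mertk, a receptor for dying cells, differed by -0.67 (SE 0.21, adjusted p = 0.386). Btc, a growth factor gene, was higher by 0.38 (SE 0.16, adjusted p = 0.533) and Alcam, a cell adhesion gene, by 0.42 (SE 0.19, adjusted p = 0.545). Without LPS replicate 3 App differed by -1.51 and Sdc4 by -1.11. Tnf, named for its role and not for its p, averaged 4.58 in LPS/LPS, 4.39 in LPS and 4.45 in control (LPS/LPS minus LPS 0.18, SE 0.20, adjusted p = 0.839, and 0.057 without LPS replicate 3).

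**Figure D4:**
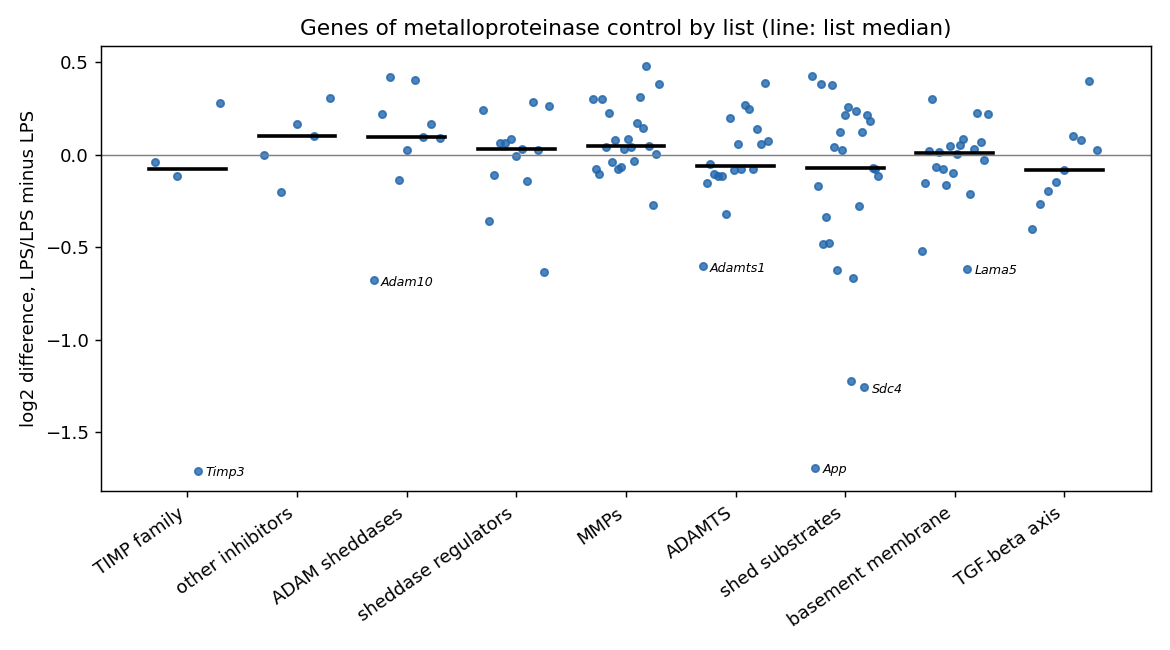
Log2 differences LPS/LPS minus LPS (vertical axis) of single genes, grouped by list, with the list median as a line. The medians of the 9 lists drawn lie between -0.08 and 0.10, and Timp3, App and Sdc4 are at -1.71, -1.69 and -1.26.

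In LPS/LPS vs control, 4.7% of all genes were past the unadjusted threshold, 2.62% as higher and 2.07% as lower. The lists are too short for the counts that follow to be set apart from that share. There were 0 of 22 matrix metalloproteinases, 0 of 9 sheddases, 0 of 13 regulators, 0 of 25 shed substrates and 1 of 18 ADAMTS genes, Adamts8 (0.31, SE 0.14, limma adjusted p = 0.987). Pcolce, a gene of collagen processing and 1 of 5 in the list of other inhibitors, differed by -0.37 (SE 0.15, adjusted p = 0.987). In LPS vs control, 3.49% of all genes were past it as higher and 2.95% as lower. Here 3 of 25 shed substrates were higher and 0 lower, led by Havcr1 at 0.76 (SE 0.20, adjusted p = 0.429) and Sdc4 at 1.09 (SE 0.32, adjusted p = 0.547). For Havcr1, LPS replicate 1 read 3.41, where the other LPS arrays read 3.87 to 4.41 and the control arrays 2.84 to 3.34. In the same comparison 2 of 18 ADAMTS genes, Adamts1 (0.56, SE 0.21, adjusted p = 0.685) and Adamts16 (0.44, SE 0.17, adjusted p = 0.711), and 1 of 13 regulators, Tspan33 (0.77, SE 0.23, adjusted p = 0.547), were past the unadjusted threshold as higher.

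Basement membrane genes, which encode the matrix under the tubule in which TIMP3 is held, had list medians of 0.01 in LPS/LPS vs LPS, 0.04 in LPS/LPS vs control and 0.09 in LPS vs control, over 20 measured genes. Lama5, a laminin chain of the tubular basement membrane, averaged 4.27 ± 0.24 in LPS/LPS, 4.89 ± 0.32 in LPS and 4.28 ± 0.13 in control (SD, n = 5, 4 and 4). LPS/LPS minus LPS was -0.62 for Lama5 (SE 0.17, limma adjusted p = 0.294) and LPS minus control 0.61 (SE 0.18, adjusted p = 0.540). Col4a3, a type IV collagen chain, averaged 4.86 in LPS/LPS, 4.56 in LPS and 5.15 in control, and the LPS arrays lay below all control arrays (LPS minus control -0.60, SE 0.14, adjusted p = 0.333). In that comparison 1 of the 20 genes was fully separated as lower and 1 as higher, where 1.6% and 1.55% of all genes were. LPS/LPS minus control was -0.30 for Col4a3 (SE 0.14, limma adjusted p = 0.987), the 1 gene of the 20 past the unadjusted threshold there. Of the genes of proteins that bind TIMP3, the clearance receptor gene Lrp1 averaged 4.17 in LPS/LPS, 4.41 in LPS and 4.09 in control (LPS/LPS minus LPS -0.24, SE 0.16, adjusted p = 0.708, and -0.11 without LPS replicate 3).

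The genes whose levels followed Timp3 most closely were ranked by Pearson r over the 13 arrays, among 1763 genes with a mean above background, leaving out predicted genes, microRNA and small nucleolar RNA genes and sensory receptors. The 6 highest were Malat1 (r = 0.94), a long nuclear RNA, Fam133b (0.90), the phospholipid flippase gene Atp11a (0.90), the uroguanylin gene Guca2b (0.88), the noncoding RNA gene Rn7sk (0.88) and the endosomal GTPase gene Rab7 (0.88). After subtraction of the group means the same correlations were between 0.45 and 0.65, and that of Timp3 with the SD of the array was 0.60. Without LPS replicate 3 the 6 correlations were between 0.87 and 0.94. Malat1 averaged 7.34 ± 0.59 in LPS/LPS, 9.61 ± 0.48 in LPS and 8.84 ± 0.32 in control (SD, n = 5, 4 and 4), the same order of groups as Timp3. Guca2b averaged 6.22 ± 0.73 in LPS/LPS, 9.34 ± 0.68 in LPS and 7.57 ± 0.65 in control. The 3 lowest were the nuclear receptor gene Esrra (r = -0.77), Snhg4 (-0.73) and Slc2a4rg-ps (-0.73). All of these r values share the same arrays, with their spread, and were the extremes of many, so they are descriptions.

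**Figure D5:**
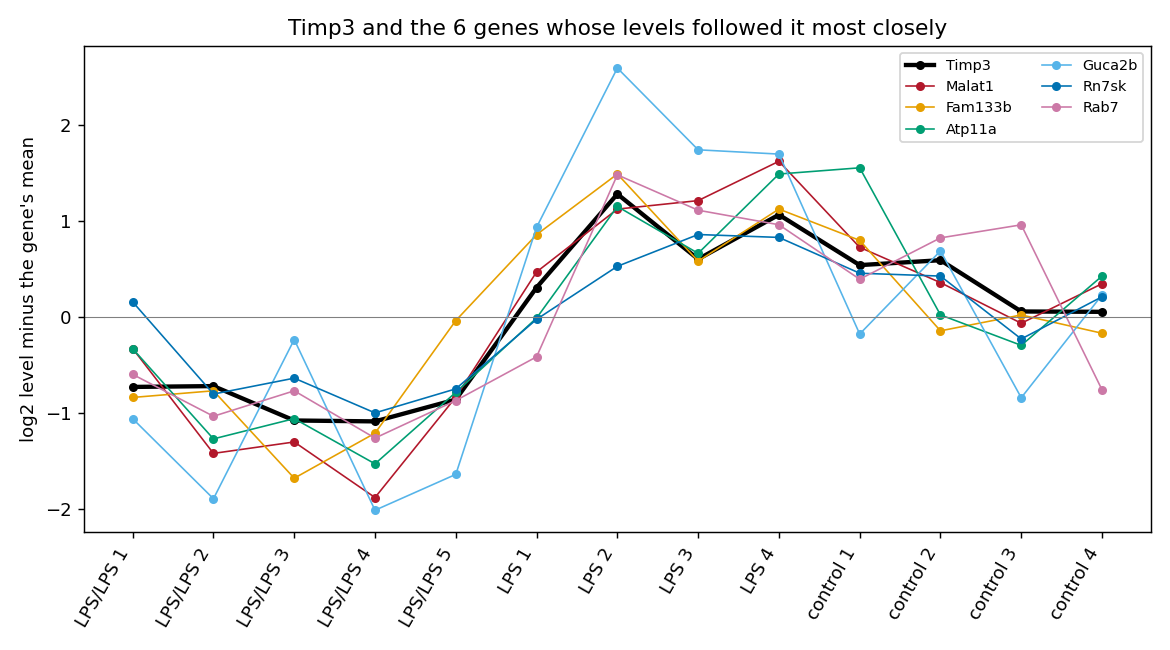
Log2 level minus the gene's own mean (vertical axis) for Timp3 (thick line) and the 6 genes with the highest Pearson r with it, on each of the 13 arrays. The 5 LPS/LPS arrays of Timp3 lie below its mean and the 4 LPS arrays above it, and Malat1 (r = 0.94) runs beside it.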

How the data were processed

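The authors deposited 1 table of log2 expression values, with 41345 probe sets for 13 arrays, made with RMA and Partek 6.6 per the submitters' processing notes. Per the labels' protocols, 2 ng of RNA per sample was labelled by the WT Pico method. Beyond the name RMA, nothing used here gives the settings of background correction and normalization, and the genome build is not stated. Names came from GEO's annotation of the platform, where 23521 probe sets had 1 symbol, 1814 several and 16010 none. For a gene with several probe sets the one with the highest mean was used, which gave 22180 genes.

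The 3 groups were fitted together without covariates in limma 3.58.1 (lmFit, eBayes; R 4.3.3), with Benjamini-Hochberg adjustment over all genes and a threshold of 0.05. The fit was tested on simulated data. Without scanner files no detection call could be made, and precision is limited by how many arrays there are. Alternatives were other normalizations, weights, blocks, filters and leaving out each array.

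The genes, lists and settings were chosen with earlier results of these data known. Named are the 7 genes and, per list and comparison, genes past the threshold or else from the 2 with the lowest p (1 in lists of 3 or fewer genes). Some genes that met this rule are not named in the results, Bsg, Mmp16 and Tgfbr1 among them. Kl, Mertk, Btc, Alcam, Mir221 and Tnf are named outside this rule. The list genes without LPS replicate 3 were computed after seeing the data.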

Additional observations from a re-analysis of the deposited data

Results flagged for a closer look

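Of 21 sets of arrays (7 genes in 3 groups), 4 held an array whose gap to its nearest neighbour was large for the range of its group by Dixon's criterion, where chance flags about 1 in 20. None of the 4 was a Timp3 value. Timp1 was 3.20 on LPS replicate 1, where the other LPS arrays read 2.46 to 2.57. On control replicate 3, Timp4 was 3.52, where the other control arrays read 3.20 to 3.25, and Adam17 was 3.83, where the others read 2.91 to 3.06. Adam10 was 3.12 on control replicate 4, where the other 3 control arrays lay within 3.00 to 3.01, so a small gap met the criterion there. All 4 values lie below the background value of 4.77.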

How the results depend on the processing

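Timp3 kept its sign and moved by less than the SD between replicates in all 3 comparisons under every setting that gave it a value: LPS/LPS minus LPS ran from -1.87 (array weights) to -1.57 (array SD as covariate), LPS/LPS minus control from -1.25 to -1.18 and LPS minus control from 0.36 to 0.68. Leaving out 1 array at a time gave -1.88 to -1.55, -1.29 to -1.11 and 0.35 to 0.67. The filter on genes above background removed all 7 genes, and each has 1 probe set, so averaging probe sets left their values as they were. Timp3 was among the genes called in LPS/LPS vs control with the array SD as covariate, where the main fit did not call it. Nothing is read from that call, since Timp3 was picked with its differences known. No gene was called without moderation. No member other than Timp3 passed the adjusted threshold under any setting. Small differences changed sign: Timp1 in LPS/LPS minus LPS with a replicate block (0.076) and array weights (0.064), with array weights Timp2 in LPS/LPS minus LPS (0.047), Timp4 in LPS/LPS minus control (0.016) and Mmp14 in LPS minus control (-0.020), and Mmp14 in LPS/LPS minus LPS with the array SD as covariate (-0.032) and the wide or narrow block (-0.026). Leaving out 1 array at a time gave -0.12 to 0.13 for Timp1, -0.26 to 0.15 for Timp2 and -0.048 to 0.10 for Mmp14 in LPS/LPS minus LPS, -0.10 to 0.10 for Timp4 in LPS/LPS minus control, and -0.0095 to 0.14 for Mmp14 in LPS minus control.

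The counts of genes called by limma (14, 2 and 0 in LPS/LPS vs LPS, LPS/LPS vs control and LPS vs control) depended on the setting, and the cause was not tested. In LPS/LPS vs LPS they were 2 with only the 2 groups in the fit, 4 with the replicate block, 41 with array weights, 9 after quantile normalization, 8 with the array SD as covariate, 7 over all probe sets and 0 without moderation. In LPS/LPS vs control they were 0 with only the 2 groups, the replicate block, all probe sets or no moderation, 4 after quantile normalization or with the wide or narrow block, 1 after scaling each array and 10 with the array SD as covariate. In LPS vs control they were 3 with the replicate block or the background filter, 30 with array weights, 5 after quantile normalization, 6 after scaling and 1 with the array SD as covariate. Leaving out 1 array at a time gave 5 to 96, 0 to 3 and 0 to 24, in that order, with the highest in the first and last without LPS replicate 1. Arrays with the same replicate number did not deviate together: of 12 such pairs 3 had a correlation over 0.1, with a range of -0.35 to 0.22, so the replicate block is given only here, where LPS/LPS minus LPS for Timp3 was -1.72.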

Other observations

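Meprins, metalloproteinases of the proximal tubule brush border in mouse, were also dim here. Mep1a averaged 3.97 in LPS/LPS, 4.18 in LPS and 4.27 in control, and its differences had SEs near 0.40 (LPS/LPS minus LPS -0.21, limma adjusted p = 0.913, and 0.26 without LPS replicate 3). Of 9 measured genes of transforming growth factor beta signalling, known as an inducer of Timp3 in other cells, 0 were past an unadjusted p under 0.05 in LPS/LPS vs LPS or LPS/LPS vs control, and Tgfb3 was past it in LPS vs control (-0.32, SE 0.14, adjusted p = 0.726). Syn3, in which Timp3 lies, averaged 3.87 ± 0.04 in LPS/LPS, 4.01 ± 0.33 in LPS and 3.83 ± 0.32 in control (SD, n = 5, 4 and 4). The probe set of the microRNA gene Mir222, whose product is known to repress TIMP3 in human cells, averaged 2.82 in LPS/LPS, 2.12 in LPS and 2.38 in control (LPS/LPS minus LPS 0.70, SE 0.23, adjusted p = 0.413). Mir221, of the same cluster, averaged 1.94 in LPS/LPS, 2.06 in LPS and 1.90 in control (LPS/LPS minus LPS -0.12, SE 0.17, adjusted p = 0.882).

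Exactly equal values on several arrays were frequent in the deposited table. Of 22180 genes, 50.6% had a value shared to all deposited digits by at least 2 arrays, 38.7% of those with a mean above background and 51.9% of the rest. Adam10 read 2.99949 on 1 LPS/LPS and 2 control arrays, Timp2 read 3.68415 on 1 LPS/LPS and 2 control arrays, and Timp1 read 2.56702 on 2 LPS and 1 control array. Timp4 shared 1 value over 3 arrays and Mmp14 over 2. Timp3 and Adam17 had 13 distinct values each. The SD of Adam10 in control, where 2 of the 4 values are equal, was 0.061.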
